A study of Homo sapiens with 8 samples.

Results

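The loci of 10 genes of the bone morphogenetic protein (BMP) pathway were described through the sites of open chromatin that the study's authors listed around them. A listed site was counted at a locus when its centre lay in a fixed interval of hg19 around the gene, 0.3 to 1.6 Mb wide and 7.5 Mb in all, and 81 of the 14191 listed sites did so. Of these, 35 came from the authors' list of sites that the morphogens open and p63 closes, called p63-closed sites here, and 46 from the list of sites that the morphogens open, called opened sites here. By its name, the first list also holds sites that the morphogens open, and the rule that put a site in one list and not in the other is not stated in the labels. A p63-closed share below is therefore a share of the listed sites, not of all sites that the morphogens open.

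The study used ATAC-seq, in which the Tn5 transposase cuts open DNA, on H9, a line of human embryonic stem cells, with 2 samples in each of 4 groups. Cells of genotype p63-/- and wild-type cells were each taken after 7 days with 1 uM retinoic acid and 5 ng/ml BMP4, the morphogens that turn these cells into surface ectoderm, the epithelium that precedes epidermis. A line with a doxycycline-inducible transgene, TetO:Tp63+/-, was taken at day 0 after 2 days with 2 ug/ml doxycycline, and wild-type cells were also taken at day 0. The labels attach the p63-closed list to the p63-/- and wild-type samples at day 7, and the opened list to the wild type of day 7 and day 0. All groups share the H9 background, the labels do not say how many clones each altered line comes from, and no list was analysed for the inducible line. The lists give positions only, with no value per sample and no gene's level, so read depth is unknown, the spread between cultures is unknown, the labelled cell types could not be checked against markers, and no test between cultures was made. Intervals given below are exact at 95% and cover counting error only; they treat each site as its own draw, although neighbouring sites tend to share a list.

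BMP ligands such as BMP2, BMP4 and BMP7 are secreted proteins that bring type I and type II receptors together on the cell surface. The type I receptor, of which BMPR1B is one, phosphorylates receptor SMADs, which enter the nucleus with SMAD4 and switch on target genes such as ID1, ID2 and ID3. Part of the response restrains the pathway: SMAD6 and SMAD7 block receptor signalling inside the cell, and BAMBI is a receptor-like protein without a kinase domain. In early ectoderm, BMP signalling favours surface ectoderm over neural fate.

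Promoter sequences are shown for BAMBI, BMPR1B, SMAD6 and ID1, since these loci span the range from many p63-closed sites to none. Each is the 250 bases before the most upstream gene start in RefSeq's table for GRCh38.p14, which is not the build of the site lists, so these positions cannot be set beside the sites. Capitals mark GGCGCC and GGAGCC, GC-rich elements known to be bound by BMP-activated SMADs, and GTCTAGAC, the palindrome known to be bound by SMAD4, on either strand.
BAMBI promoter, chr10:28677271-28677520, plus strand: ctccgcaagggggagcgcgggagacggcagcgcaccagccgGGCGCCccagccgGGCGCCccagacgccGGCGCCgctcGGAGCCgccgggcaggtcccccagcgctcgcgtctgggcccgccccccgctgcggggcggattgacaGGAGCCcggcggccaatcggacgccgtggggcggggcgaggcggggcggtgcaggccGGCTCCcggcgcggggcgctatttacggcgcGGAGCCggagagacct
BMPR1B promoter, chr4:94757705-94757954, plus strand: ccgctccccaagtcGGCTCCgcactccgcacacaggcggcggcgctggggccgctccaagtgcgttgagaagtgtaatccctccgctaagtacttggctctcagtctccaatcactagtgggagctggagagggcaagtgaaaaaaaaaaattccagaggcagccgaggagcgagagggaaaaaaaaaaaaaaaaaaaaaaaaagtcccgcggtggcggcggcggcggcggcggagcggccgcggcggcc
SMAD6 promoter, chr15:66701986-66702235, plus strand: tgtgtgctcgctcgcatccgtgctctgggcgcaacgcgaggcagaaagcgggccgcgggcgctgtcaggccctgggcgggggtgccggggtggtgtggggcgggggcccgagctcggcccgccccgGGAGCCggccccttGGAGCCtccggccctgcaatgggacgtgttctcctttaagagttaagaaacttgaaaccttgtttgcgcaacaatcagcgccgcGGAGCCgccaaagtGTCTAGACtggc
ID1 promoter, chr20:31605039-31605288, plus strand: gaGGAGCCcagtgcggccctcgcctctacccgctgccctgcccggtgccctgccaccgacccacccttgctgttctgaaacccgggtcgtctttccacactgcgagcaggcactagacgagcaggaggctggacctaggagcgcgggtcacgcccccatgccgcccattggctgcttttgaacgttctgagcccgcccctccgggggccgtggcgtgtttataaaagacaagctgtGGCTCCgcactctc

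The BAMBI window held 3 matches to GGCGCC and 4 to GGAGCC, and was the richest in G and C of the windows found for these genes, at 81.2%. The SMAD6 window held 1 match to GTCTAGAC and 3 to GGAGCC. In the ID1 window GGAGCC matched 2 times, and in the first BMPR1B window 1 time. At least 1 match was present in 16.4% of the 35116 windows of the same length in the table for GGCGCC, in 30.6% for GGAGCC and in 0.182% for GTCTAGAC. The GC-rich elements are therefore common, and the SMAD4 palindrome is rare. The table matched 8 of the 10 genes. Of the other genes matched, GGCGCC was present in the most upstream of the 3 BMP4 windows, while GGAGCC was present in the third BMP4 window, the third SMAD7 window and the ID3 window. The ID2 window held none of these letters. The half-site decamer of the p53 family, to which p63 belongs, matched only in the third BMPR1B window, against 5.57% of all windows. A match is a run of letters, not evidence of binding.

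Across the 10 loci, 43.2% of the listed sites were p63-closed (95% interval 32.2 to 54.7%), against 42.5% of all listed sites. As a set, the loci therefore had close to the mix of the whole lists. They held more sites of both lists per stretch of genome. The numbers in the site names were taken here to count the entries of a catalogue of candidate regions, at a mean of 625 per Mb. What an entry is was not checked. The number of entries in an interval served as a denominator, and a share of entries is not a share of open sites. There were 6.90 p63-closed sites per 1000 entries at the loci (95% interval 4.81 to 9.60), against 3.30 in the whole list, where 0.330% of entries are p63-closed. Opened sites had a density of 9.07 per 1000 entries at the loci (6.64 to 12.1), against 4.46 in the whole list, where 0.446% of entries are opened. Both densities were thus about equally raised, 2.09 times for p63-closed sites and 2.04 times for opened sites. The interval limits were drawn around known genes with earlier results of these data in view, so this excess is given as a description.

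The mix differed between loci pooled by role. At each locus taken alone, the interval of the p63-closed share included the 42.5% of all listed sites. For example, it ran from 39.0 to 94.0% at BMP4 and from 0 to 45.9% at ID1. The share of a single locus therefore cannot tell it from the whole lists. The ligand, receptor and pseudoreceptor loci held 33 p63-closed and 24 opened sites, a p63-closed share of 57.9% (44.1 to 70.9%). The inhibitory SMAD and ID loci held 2 p63-closed and 22 opened sites, a share of 8.33% (1.03 to 27.0%). The share of all listed sites, 42.5%, lay between these values. No test of this difference was made, because the grouping by role was chosen with the counts known. BAMBI, named above beside SMAD6 and SMAD7 as restraining the pathway, was counted in the first group. It had 7 p63-closed and 6 opened sites, a share of 53.8%, so placing it in the second group would raise the share there. The p63-closed density was 9.97 per 1000 entries (6.86 to 14.001) in the first group and 1.14 (0.137 to 4.10) in the second, against 3.30 in the whole list, which the second interval includes. The opened density was 7.25 (4.65 to 10.8) in the first group and 12.5 (7.82 to 18.9) in the second, and both intervals lie above the 4.46 of the whole list.

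**Figure D1:**
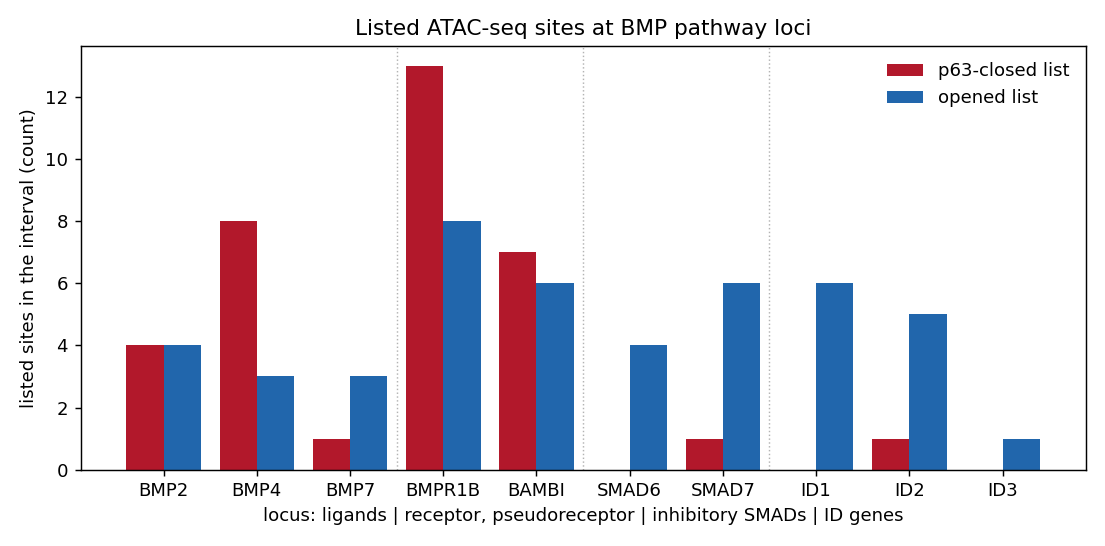
Number of listed sites at each locus, with p63-closed sites in red and opened sites in blue. BMPR1B had the most p63-closed sites, 13, and SMAD6, ID1 and ID3 had 0.

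**Figure D2:**
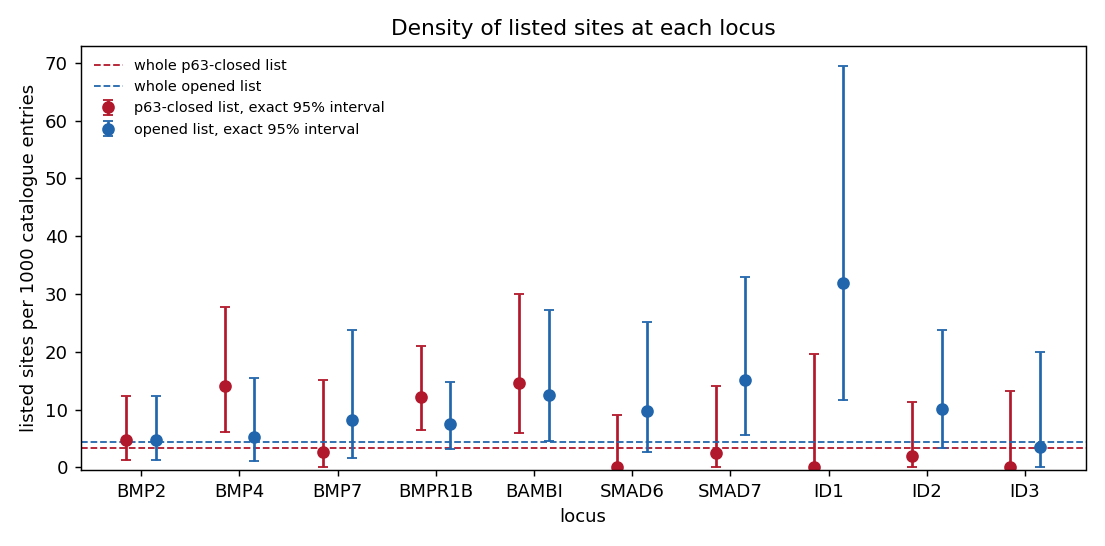
Listed sites per 1000 catalogue entries at each locus, with exact 95% Poisson intervals as bars and the density of each whole list as a dashed line. The p63-closed density of BMP4, BMPR1B and BAMBI and the opened density of BAMBI, SMAD7 and ID1 have intervals wholly above the line of their list.

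Among the ligands, BMP4, which encodes the same ligand that was added to the medium, had 8 p63-closed and 3 opened sites on chromosome 14, a p63-closed share of 72.7% (39.0 to 94.0%). Of all fixed windows of 0.9 Mb laid end to end along the chromosomes, 2.79% held at least 8 p63-closed sites and 38.9% held at least 3 opened sites. Windows in unassembled sequence, which can hold no site, were not left out and lower this and the later shares of windows. Against these windows, BMP4 was high in p63-closed sites and ordinary in opened ones. The sites ran in blocks: 4 p63-closed sites from 54101188 to 54388626, then 2 opened sites to 54466613, 3 p63-closed sites from 54653481 to 54759205, 1 opened site and 1 p63-closed site. The closest sites of different lists were a p63-closed site at 54387245 to 54388626 and an opened site at 54390844 to 54392426, with 2217 bp between them. In the RefSeq gene table of GRCh38.p14, used for names only, the nearest named protein-coding genes are DDHD1 on one side and CDKN3 on the other.

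BMP2, a close relative of BMP4, had 4 p63-closed and 4 opened sites on chromosome 20, counts that 26.0% and 39.0% of fixed windows of 1.2 Mb reached. Its opened sites lay closer together than its p63-closed sites. The 4 opened sites lay between 6575535 and 6647211, with no p63-closed site among them. The first 3 of these spanned 10.9 kb, from 6575535 to 6586391, and included a pair with consecutive catalogue numbers, 739 bp apart. Among the 3841 sets of 3 neighbouring opened sites in the whole list, 20 (0.521%) were as short. The p63-closed sites of BMP2 lay on both sides of this group, 1 of them 17666 bp before it at 6556031 to 6557868, and 3 after it, spread from 6892448 to 7432711 over 540 kb, of which the first 2 lay within 33.0 kb.

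BMP7, the third ligand, had 1 p63-closed and 3 opened sites on chromosome 20. At least 3 opened sites were present in 18.1% of windows of 0.5 Mb, and at least 1 p63-closed site in 48.7%, so the BMP7 counts were common ones. Its widest site was an opened site of 3018 bp at 56043902 to 56046919, and 4.57% of opened sites were as wide. The only p63-closed site, of 1175 bp, lay at 55697613 to 55698787, 73502 bp after the nearest opened site. The BMP7 counts depended on the limits of the interval, since the nearest sites outside it, 17.3 kb below and 55.3 kb above, were both p63-closed.

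The interval around the receptor BMPR1B, on chromosome 4 from 95.4 to 97.0 Mb, had the most sites of the 10 loci. It held 13 p63-closed and 8 opened sites, and which of them lie in BMPR1B itself was not determined. At least 13 p63-closed sites were present in 1.37% of fixed windows of 1.6 Mb, at least 8 opened sites in 14.5%, and at least 21 listed sites in 0.946%. The lists were unevenly placed within the interval. The first 3 sites, between 95552139 and 96113331, were opened and spread over 561 kb. No listed site lay in the 509 kb between the second of them, ending at 95602599, and the third, starting at 96111669. Blocks of 4 p63-closed sites (96204120 to 96314780) and 4 opened sites (96351896 to 96460882) followed in the middle, with 1 site of each list before them. The last 8 sites, from 96461110 to 96925972, were all p63-closed. Of all p63-closed sites, 13.6% lie in an unbroken run of at least 8, so a run of this length is not rare in the list.

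The change from the opened to the p63-closed block at BMPR1B was abrupt. An opened site of 2408 bp at 96458475 to 96460882 and a p63-closed site of 804 bp at 96461110 to 96461913 were 227 bp apart and had consecutive catalogue numbers. The widest p63-closed site of all loci, 3258 bp, lay in the p63-closed block at 96593365 to 96596622, and 2.47% of p63-closed sites were as wide. In the gene table the protein-coding genes that follow BMPR1B are UNC5C, a netrin receptor, and PDHA2. Gene positions on hg19 were not used here, so which sites lie in BMPR1B itself was not determined, and the same holds at the other loci.

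BAMBI, the pseudoreceptor, had 7 p63-closed and 6 opened sites on chromosome 10, the highest density of listed sites among the ligand and receptor loci, at 27.1 per 1000 entries (14.4 to 46.3), against 7.75 in the whole lists. At least 13 listed sites were present in 0.738% of fixed windows of 0.7 Mb. The p63-closed count alone was reached in 2.47% and the opened count in 5.61% of those windows. The BAMBI counts also depended on the limits of the interval. Its last p63-closed site lay 5.14 kb inside the upper limit, and another p63-closed site lay 16.3 kb beyond it. Sites of both lists were interspersed at BAMBI, in runs of 1 to 3. Of its 12 pairs of neighbours 7 were mixed, so 41.7% were from the same list (15.2 to 72.3%), against 61.5% of the neighbours in the whole lists. That interval includes the value of the whole lists.

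The closest mixed pair of all loci was at BAMBI, where an opened site of 1643 bp at 28788568 to 28790210 and a p63-closed site of 2469 bp at 28790268 to 28792736 were 57 bp apart. Further pairs with consecutive catalogue numbers were an opened site at 28954755 to 28955959 with a p63-closed site at 28957253 to 28958962, and an opened site at 29352878 to 29354082 with a p63-closed site at 29355823 to 29356770. All 3 pairs with consecutive numbers at BAMBI were thus mixed, and in each the opened site came first along the chromosome. In the gene table WAC precedes BAMBI and LYZL1 follows it, and which gene each pair lies nearest was not determined. At the 10 loci together, 4 of 6 such pairs were mixed, against 110 of 384 in the whole lists. All 7 p63-closed sites of BAMBI had an opened site within 50 kb between centres, against 28.9% of p63-closed sites in the whole list. The median distance was 14.5 kb at BAMBI, against 120 kb in the whole list.

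**Figure D3:**
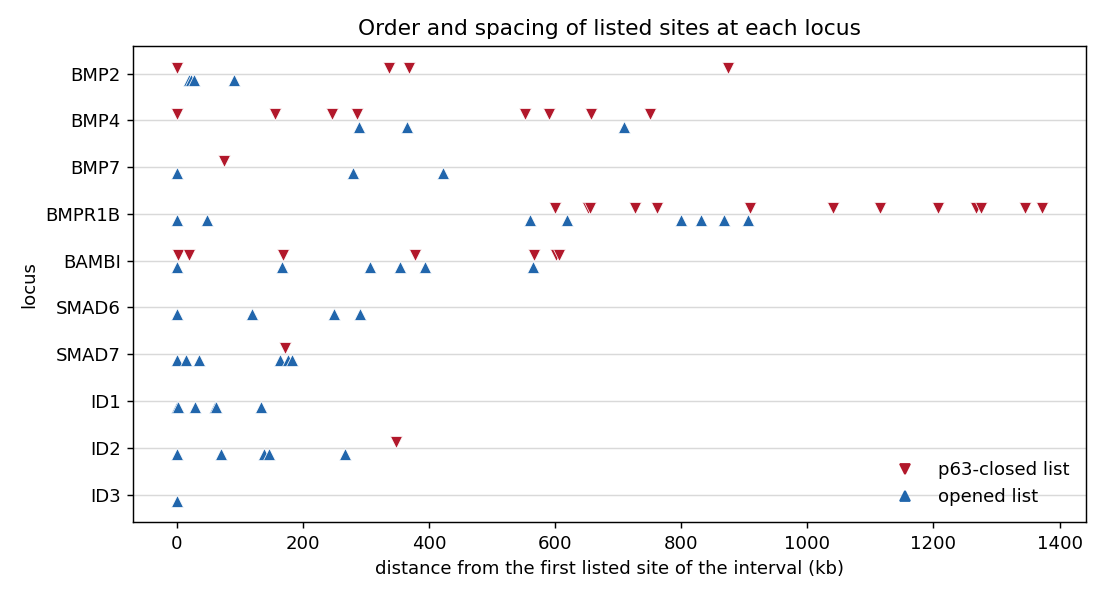
Order of the listed sites along each interval, as the distance in kb of each site's start from the first listed site. Red triangles pointing down are p63-closed sites and blue triangles pointing up are opened sites. BMPR1B ends in 8 p63-closed sites, BAMBI sites of the lists are interspersed, and SMAD6, ID1 and ID3 have opened sites alone.

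The inhibitory SMADs had 1 p63-closed and 10 opened sites between them. SMAD7, which blocks both BMP and TGF-beta receptors, had 1 p63-closed and 6 opened sites on chromosome 18. Its opened density was 15.1 per 1000 entries (5.55 to 32.9), and 3.72% of fixed windows of 0.6 Mb held at least 6 opened sites. At least 1 p63-closed site was present in 53.2% of them, and 2.29% held at least 6 opened with at most 1 p63-closed site. The opened sites formed groups of 3, from 46292700 to 46330294, and of 3 more between 46456225 and 46475739. Within the second group lay the only p63-closed site of SMAD7, at 46463699 to 46464330, with 4449 bp to the opened site after it. It was 632 bp wide, the narrowest of the 81 sites, and 98.8% of p63-closed sites were at least as wide.

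SMAD6, the inhibitor more specific to BMP receptors, had 0 p63-closed and 4 opened sites on chromosome 15. The exact 95% upper limit of its p63-closed share was 60.2%, so 4 sites alone cannot tell it from the whole lists. At least 4 opened sites were present in 12.5% of windows of 0.6 Mb, and at least 4 opened with 0 p63-closed sites in 4.77%. The opened sites were spaced over 292 kb, from 66884548 to 67176585, and were 1118 to 1728 bp wide. The nearest p63-closed site to any of them was 414 kb away between centres. SMAD3, which encodes a receptor SMAD of the TGF-beta branch, is the gene after SMAD6 in the gene table.

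The ID genes encode helix-loop-helix proteins that lack a DNA-binding region and hold basic helix-loop-helix factors away from DNA. Their 3 loci had 1 p63-closed and 12 opened sites. ID1, on chromosome 20, had 0 p63-closed and 6 opened sites in the narrowest interval, 0.3 Mb, the highest opened density of the 10 loci at 31.9 per 1000 entries (11.7 to 69.5). At least 6 opened sites were present in 0.673% of fixed windows of this width, and at least 6 opened with 0 p63-closed sites in 0.386%. The first 5 opened sites lay within 65.2 kb, from 30131527 to 30196750. A site of 2154 bp at 30191814 to 30193967 and one of 2638 bp at 30194113 to 30196750, the widest at ID1, were 145 bp apart and had consecutive numbers. The nearest p63-closed site was 1989 to 2123 kb from the ID1 sites. No listed site lay in the 4065 kb below the interval, a gap that may include unassembled sequence. The number of entries at that edge was therefore estimated from the mean over the genome, and the part of the gap in the density was not tested. Another opened site lay 7.66 kb above the interval. In the gene table HM13 and MCTS2 precede ID1, and COX4I2 and BCL2L1 follow it. Which of these genes each site lies nearest was not determined.

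ID2, on chromosome 2, had 1 p63-closed and 5 opened sites. At least 1 p63-closed site was present in 57.7% of windows of 0.7 Mb, at least 5 opened sites in 9.80%, and at least 5 opened with at most 1 p63-closed site in 6.07%. The 5 opened sites came in an unbroken run from 8679176 to 8948943, and the widest, 2199 bp, was the last, at 8946745 to 8948943. The p63-closed site followed at 9026533 to 9027794, after 77589 bp. Of all opened sites, 50.3% lie in an unbroken run of at least 5 and 41.8% in one of at least 6, so the runs of ID2 and ID1 are common in that list.

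ID3, on chromosome 1, had 0 p63-closed sites and 1 opened site, of 1016 bp, at 23888261 to 23889276. At least 1 opened site was present in 55.3% of windows of 0.4 Mb, and at least 1 opened with 0 p63-closed sites in 28.4%. The ID3 interval thus did not share the gathering of opened sites seen in the ID1 interval. The nearest p63-closed site was 618 kb away. The p63-closed counts of ID1, ID2 and ID3, which were 0, 1 and 0, equal the median counts of fixed windows of the same widths, and their opened counts were 6, 5 and 1, against medians of 0, 1 and 1.

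The distance to the other list also differed between these groups of loci. At the ligand, receptor and pseudoreceptor loci, 16 of 33 p63-closed sites had an opened site within 50 kb, or 48.5%, and 16 of 24 opened sites had a p63-closed site within 50 kb, or 66.7%. In the whole lists these shares were 28.9% and 22.0%. At the inhibitory SMAD and ID loci, 1 of 2 p63-closed sites and 3 of 22 opened sites had the other list within 50 kb, and all 4 of these were at SMAD7. The median distance of an opened site to a p63-closed site was 39.7 kb in the first group and 381 kb in the second, against 197 kb in the whole list. These distances follow in part from the counts, since a locus with few p63-closed sites must have opened sites far from them.

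**Figure D4:**
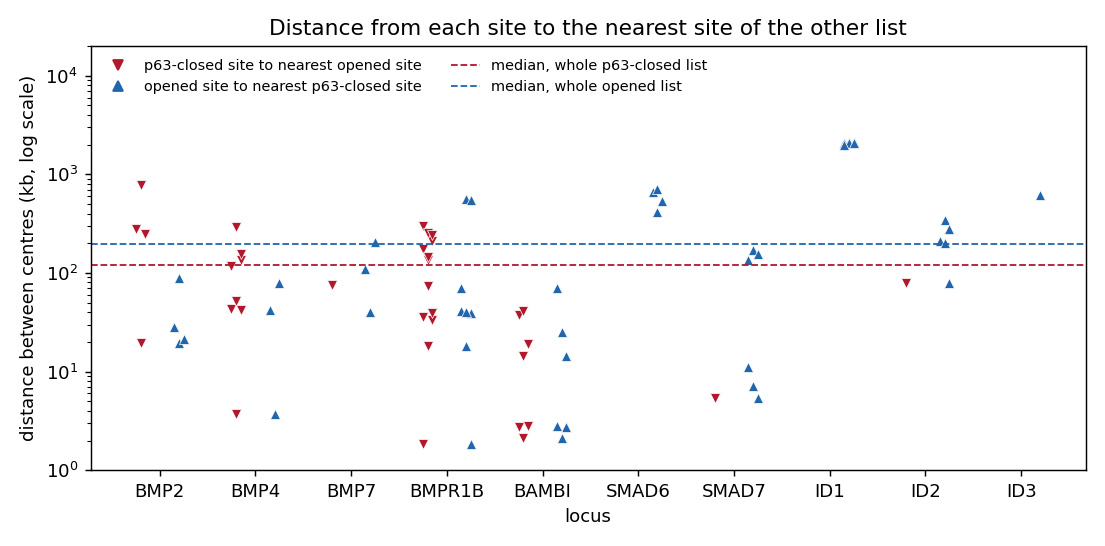
Distance between the centre of each site and the nearest centre of the other list, in kb on a log scale, by locus. Red triangles pointing down are p63-closed sites, blue triangles pointing up are opened sites, and dashed lines are the medians of the whole lists, 120 and 197 kb. BAMBI sites lie at 2.11 to 70.9 kb and ID1 sites at 1989 to 2123 kb.

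With sites chained wherever centres were up to 50 kb apart, 60 of the 81 sites, or 74.1%, fell into 19 groups of 2 or more, against 54.6% of all listed sites. The loci also held more sites per stretch of genome, and the part of that density in the chained share was not tested. The largest was at BMPR1B, with 3 p63-closed and 4 opened sites from 96279157 to 96461913. A group of 5 at BMPR1B held 3 p63-closed and 2 opened sites, and the group of 5 at ID1 held opened sites alone. BMP7 and ID3 had no such group. Neighbouring sites of the 10 loci were from the same list in 48 of 71 pairs, or 67.6% (55.5 to 78.2%), against 61.5% in the whole lists, which lies in that interval. The median gap between neighbours was 38.3 kb at the loci, against 94.7 kb in the whole lists. Gaps at the loci were taken only between sites of the same interval, so none could exceed its width. The whole lists kept gaps up to 23460 kb. The locus median is therefore lowered by construction, and how far was not tested.

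Widths at the loci were close to those of the whole lists. The median was 1421 bp for the 35 p63-closed sites (quartiles 1184.5 and 1825.5 bp), against 1531 bp in the whole list (1179 and 2005 bp). For the 46 opened sites it was 1625.5 bp (1252 and 1921.75 bp), against 1597 bp in the whole list (1222 and 2063 bp). Both differences are small beside the spread within a list, and no test was made. Within BMPR1B, p63-closed sites had a median of 1442 bp (804 to 3258 bp) and opened sites one of 1970 bp (1221 to 2408 bp), while at BAMBI the order was the other way, at 1430 bp (948 to 2469 bp) and 1228.5 bp (1127 to 2112 bp). The lists overlapped in width at both loci.

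**Figure D5:**
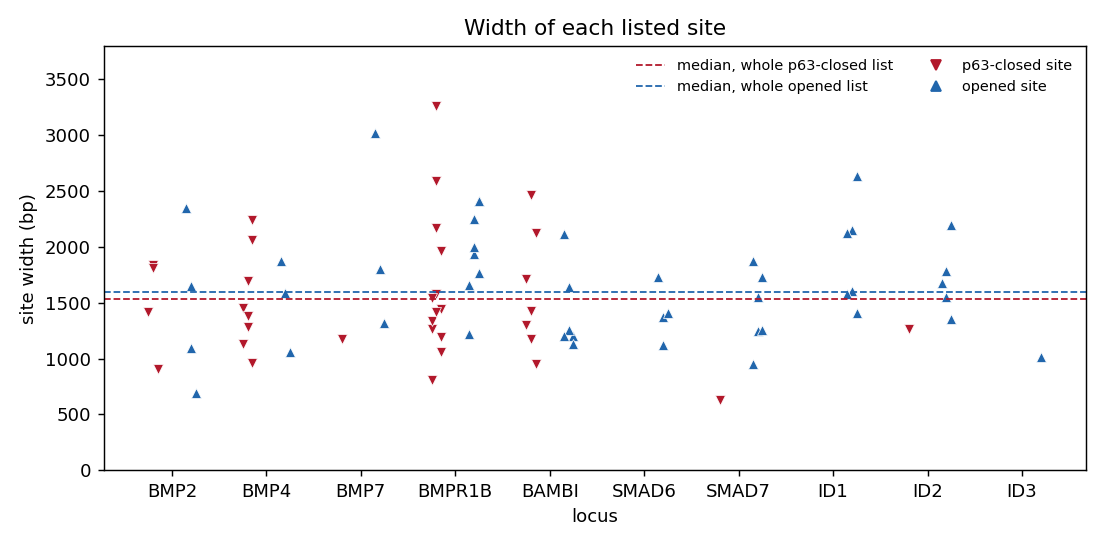
Width in bp of each site by locus, with p63-closed sites as red triangles pointing down, opened sites as blue triangles pointing up, and the medians of the whole lists, 1531 and 1597 bp, as dashed lines. Sites of both lists spread to either side of the medians, from 632 bp at SMAD7 to 3258 bp at BMPR1B.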

How the data were processed

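ATAC-seq libraries were made from 8 samples, 2 in each of 4 groups. The labels' protocols state that nuclei were transposed and that only libraries passing an enrichment score at transcription start sites were sequenced further. Per the submitters' processing notes, the tools included Bowtie2 with SAMtools, FastQC, and DESeq2 beside MACS2, on hg19 (GRCh37). The role and version of each tool, like the thresholds and any pooling, were not given in the sources used here. In all, 2 lists deposited by the authors hold the chromosome, start, end and numbered name of each site and no score. Their depth is unknown, and the direction of change is the authors' own.

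Sites were counted by centre, on 1-based positions. The catalogue was estimated from the site names as 1830158 entries, with 6 jumps in the numbering bridged at the mean of 625 entries per Mb. Entries at an interval's edge were interpolated between listed sites, except at 1 edge in a gap over 1 Mb. Fixed windows of each locus's width were laid from the start of each chromosome. None was left out for unassembled sequence, which lowers the shares of windows and can lower their medians. Intervals are Clopper-Pearson for shares and Poisson for densities. All 10 loci are described; sites named are the widest of each list, the closest mixed pair, the tightest 3 of 1 list and the ends of blocks, consecutive-number pairs and chained groups, the last 3 kinds chosen after their values were seen. The members and lists were chosen with earlier results of these data known, and so was the grouping by role. Motifs were searched on both strands in RefSeq windows of GRCh38.p14. Counting was tested on simulated lists. Further pathway genes were not counted, since an hg19 annotation was not used here. Alternatives changed the interval limits, the joining of sites, the denominator, the chaining distance and the loci included. Python 3.11.15, numpy 2.4.6, scipy 1.17.1 and matplotlib 3.10.9 were used.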

Additional observations from a re-analysis of the deposited data

How the results depend on the processing

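No paired analysis was possible because neither list gives a value for any sample, and no replicate could be left out. Of 38 alternatives, 37 stayed within the interval of the reported value, or within 1.5 times a count, and 1 moved. Without BMPR1B the p63-closed sites fell to 22, against 35 with it, by construction, and the p63-closed share was 36.7%. With intervals widened by 100 kb, the shares were 60.0% at the ligand, receptor and pseudoreceptor loci and 6.90% at the inhibitory SMAD and ID loci, and narrowing by 50 kb gave 56.9% and 8.70%. Joining sites of 1 list under 10 kb apart gave 57.7% and 10.0%. Leaving out each locus in turn, which was chosen after seeing the data except for BMPR1B, gave 54.3 to 60.4% and 5.56 to 11.1%. All of these shares keep the grouping by role, which was made with the counts known, so they cannot test that grouping. No alternative moved BAMBI to the inhibitory SMAD and ID loci. Any overlap in place of the centre changed no count. Per Mb of interval, the density was 2.26 times that of the whole list for p63-closed sites and 2.20 times for opened sites. The same-list share was 63.4% for neighbours within 50 kb. Chaining up to 25 kb gave 16 groups and up to 100 kb 18. A site missing from a list is not shown to be unchanged, because depth and thresholds are unknown.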
